A study of Mus musculus with 6 samples.

Results

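The annexins are a family of calcium-dependent membrane proteins, and 8 of their genes were followed here in the retinal pigment epithelium (RPE) of mice exposed to damaging light. The genes were Anxa1, Anxa2, Anxa3, Anxa4, Anxa5, Anxa6, Anxa7 and Anxa11, chosen by name, with earlier results of these data known. Of these 8, 7 had a probe set that the platform annotation gives to 1 gene only, out of 18193 genes measured that way. The 1 probe set annotated to Anxa11 carries 3 gene symbols, so Anxa11 was not analysed here. The RPE is the cell layer behind the photoreceptors that engulfs their shed outer segments.

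All animals were BALB/c mice, an albino strain, kept in darkness for 1 week. The dark-adapted group (3 arrays) received no damaging light, and the light-damaged group (3 arrays) was put under white fluorescent lamps at 6000 lux for 1.5 h, and its RPE was collected 24 h later. The labels give no age or sex and do not say whether a sample is 1 animal or a pool, so p-values reflect the spread of these samples alone, some of which may be technical. The question was how light damage changes RPE transcripts. Values are log2 expression from RMA, a method that corrects background, normalizes and summarises the probes of each array.

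Annexins share a folded core that binds calcium and, through it, membranes rich in acidic phospholipids such as phosphatidylserine. Their N-terminal tails differ and dock partners, among them S100 proteins. Annexins take part in sealing torn plasma membrane, in vesicle traffic and in limiting inflammation, and phosphatidylserine is also the lipid by which RPE recognises spent outer segment tips.

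The replicate numbers were used to pair the arrays, and each difference, in log2 units ± standard error (n = 3 per group), is the light-damaged value minus the dark-adapted one. A gene was called at an adjusted p under 0.05 in limma with the replicate number as a block, adjusted over all genes. The arrays of replicate 1 stood apart: the difference between the 3′ and 5′ control probe sets of Gapdh, which depends on RNA quality and labelling, was 2.45 and 2.48 there and 1.54 to 1.80 in the other 4. Its part in the results was not tested, and values by pair are given below. The tissue label was checked against 13 RPE markers, whose mean log2 level was 12.59 to 12.92 in dark-adapted arrays. The 13 photoreceptor markers were also bright, at a mean of 11.75 to 12.34, so photoreceptor transcripts were present in the samples.

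Anxa3, Anxa4 and Anxa5 rose in light-damaged RPE, and none of the 7 annexins fell. The 3 that rose compare with 3.07% of all genes called higher, while 1.92% were called lower and 4.99% in either direction. Anxa3 rose 1.83-fold, Anxa5 1.70-fold and Anxa4 1.58-fold. Anxa1, Anxa2, Anxa6 and Anxa7 did not pass the test. The median difference of the 7 was 0.53, against -0.0001 over all genes. All 7 differences were above 0, but that of Anxa7 was 0.01 and turned negative, to -0.0026, when each array was centred on its median. Without the block, limma called none of the 7, 0.0495% of all genes were called higher, and 3 annexins had an unadjusted p under 0.05, as did 5.94% of all genes.

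**Figure D1:**
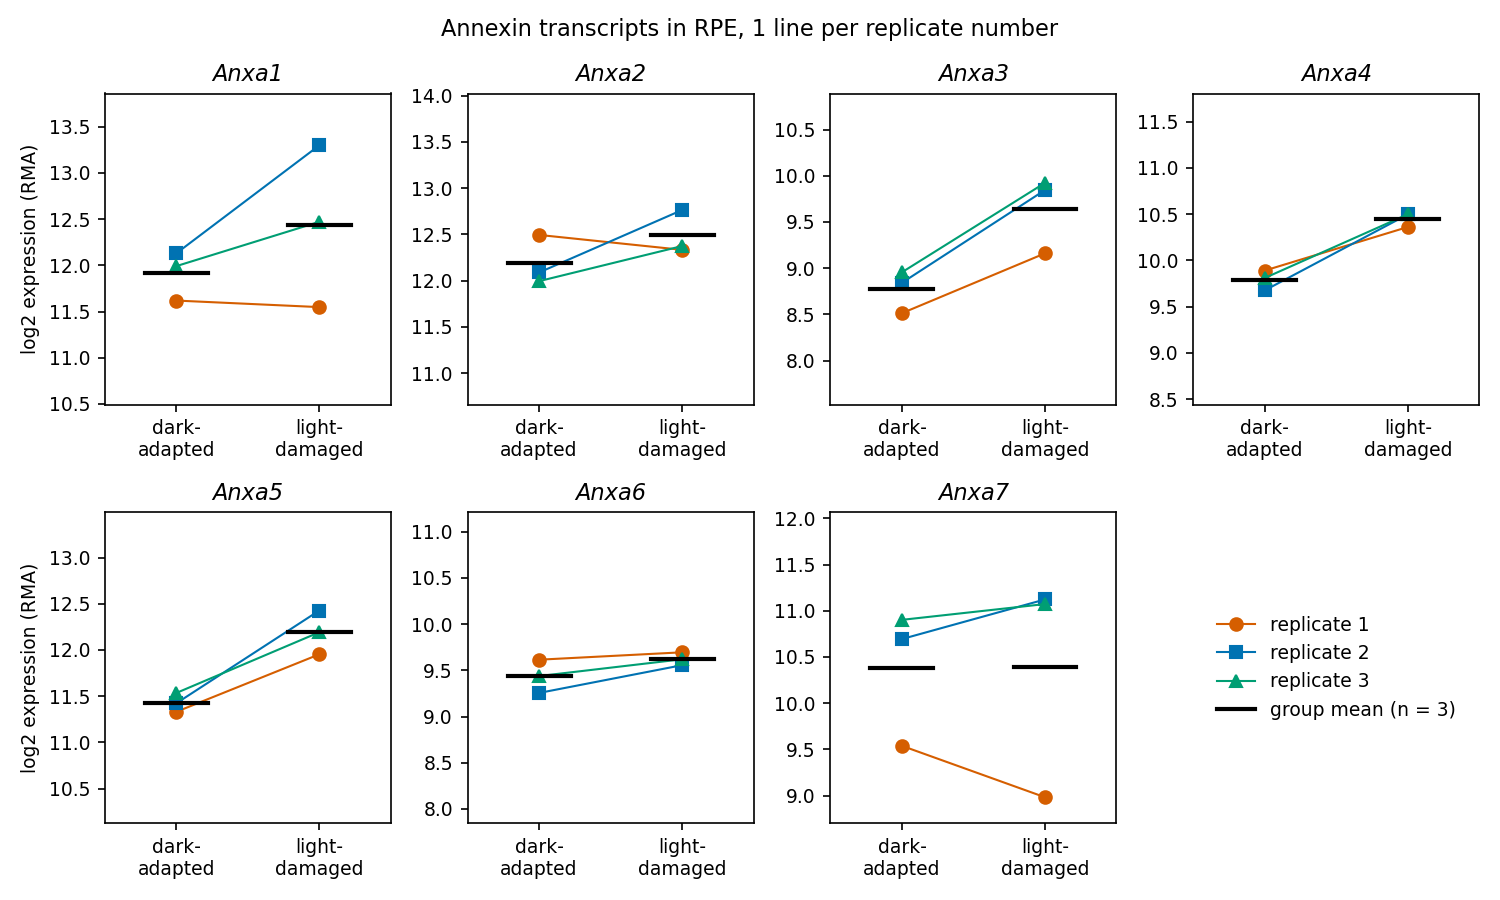
Log2 expression of the 7 annexins (y axis, 1 panel per gene, each spanning the same number of log2 units) in dark-adapted and light-damaged RPE (x axis). Points are arrays, coloured lines join arrays of the same replicate number, and black bars are group means (n = 3). For Anxa3, Anxa4 and Anxa5 every light-damaged array lies above every dark-adapted array, and for Anxa7 both replicate 1 arrays lie far below the others.

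Anxa5 is the annexin used to stain dying cells, because it binds exposed phosphatidylserine. It measured 11.33, 11.42 and 11.53 in dark-adapted replicates 1, 2 and 3 and 11.95, 12.43 and 12.19 in the light-damaged ones. The groups did not overlap, as was so for 6.61% of all genes in the upward direction. The difference was 0.76 ± 0.11 (limma adjusted p = 0.0157), with a 95% interval of 0.50 to 1.02. By pair it was 0.62, 1.00 and 0.66, so the light-damaged array was higher in every pair. The array has 1 usable probe set for this gene, which leaves no second measurement.

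Anxa3, an annexin abundant in neutrophils, measured 8.51, 8.84 and 8.96 in dark-adapted replicates 1, 2 and 3 and 9.16, 9.85 and 9.92 in light-damaged ones. The replicate 1 array was the lowest in each group, and the groups did not overlap. The difference was 0.87 ± 0.11 (limma adjusted p = 0.0092), with a 95% interval of 0.62 to 1.12 and 0.65, 1.00 and 0.97 by pair. Of all genes, 1.13% had a larger difference. Anxa3 also had a single usable probe set.

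Anxa4, an annexin of secretory and polarised epithelia, measured 9.89, 9.68 and 9.81 in dark-adapted replicates 1, 2 and 3 and 10.36, 10.50 and 10.50 in light-damaged ones, with no overlap. The difference was 0.66 ± 0.10 (limma adjusted p = 0.0202), with a 95% interval of 0.42 to 0.90 and 0.47, 0.82 and 0.69 by pair. A dimmer Anxa4 probe set gave 0.53 ± 0.13, again without overlap, with an adjusted p of 0.0797 over all probe sets in limma. The third, the dimmest and of the x_at kind, which may also detect related transcripts, gave 0.14 ± 0.08.

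The calls of these 3 genes rested on the pairing and on replicate 3. Without both replicate 3 arrays none of them passed, with limma adjusted p-values of 0.0643 for Anxa3, 0.1152 for Anxa4 and 0.0689 for Anxa5, while their differences were 0.83, 0.65 and 0.81. That fit called 160 of 18193 genes higher, against 559 with all arrays, so calls were lost across the whole array. Without replicate 2, Anxa4 alone of the 3 lost its call (limma adjusted p = 0.0554). Without the block the adjusted p-values were 0.4603, 0.1758 and 0.2266 for Anxa3, Anxa4 and Anxa5 with the same differences.

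**Figure D2:**
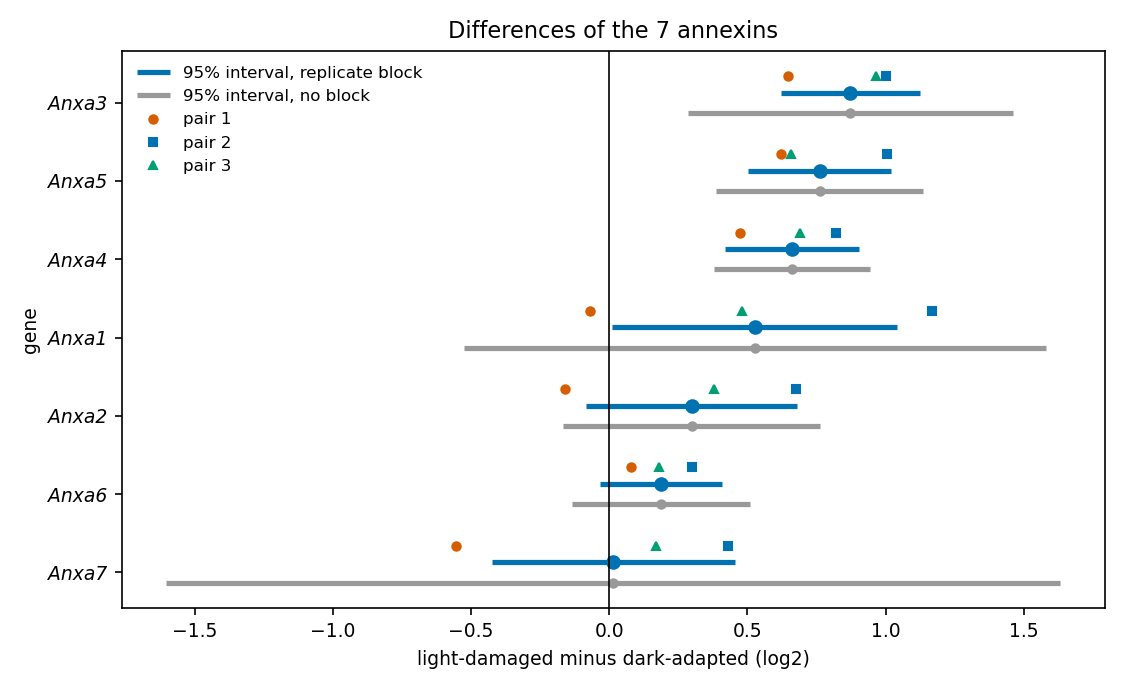
Light-damaged minus dark-adapted difference in log2 expression (x axis) for each annexin (y axis). Blue bars are 95% intervals with the replicate block, grey bars those without it, large points the estimates, and small symbols the differences within pairs 1, 2 and 3. The intervals of Anxa3, Anxa4 and Anxa5 lie above 0 in both fits, from 0.42 upward with the block, and the grey interval of Anxa7 runs from -1.60 to 1.63.

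Anxa1 is a ligand of formyl peptide receptors, induced by glucocorticoids and known for ending inflammation. It measured 11.62, 12.13 and 11.99 in dark-adapted replicates 1, 2 and 3 and 11.55, 13.30 and 12.47 in light-damaged ones. The light-damaged replicate 2 array was the highest of all and the light-damaged replicate 1 array the lowest, so the groups overlapped. The difference was 0.53 ± 0.22 (limma adjusted p = 0.2536), with a 95% interval of 0.01 to 1.04. By pair it was -0.07, 1.17 and 0.48. Without both replicate 1 arrays the difference was 0.82 and passed (limma adjusted p = 0.0323). A far dimmer Anxa1 probe set gave 0.08 ± 0.09.

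Anxa2 pairs with S100a10 at the cell surface, where the complex binds plasminogen and its activator. It measured 12.49, 12.09 and 11.99 in dark-adapted replicates 1, 2 and 3 and 12.33, 12.76 and 12.37 in light-damaged ones, and the groups overlapped through dark-adapted replicate 1. The difference was 0.30 ± 0.16 (limma adjusted p = 0.3925), with a 95% interval of -0.08 to 0.68 and -0.16, 0.68 and 0.38 by pair. As with Anxa1, pair 1 alone was below 0. Without both replicate 1 arrays the difference was 0.53 and passed (limma adjusted p = 0.0367), so 5 annexins rose there. In that fit 827 of 18193 genes were called higher, against 559 with all arrays. The dimmer Anxa2 probe sets gave 0.11 ± 0.11 and 0.12 ± 0.09.

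Anxa6, whose core is longer than that of the other annexins, acts in endosome traffic and cholesterol transport. It measured 9.61, 9.26 and 9.44 in dark-adapted replicates 1, 2 and 3 and 9.69, 9.56 and 9.62 in light-damaged ones. All 3 pairs were higher, as in 19.9% of all genes, while the groups overlapped. The difference of 0.19 ± 0.09 did not pass (limma adjusted p = 0.3456), and its 95% interval of -0.03 to 0.41 reaches 1.33-fold at its upper end. Its 3 other probe sets gave 0.08, 0.26 and 0.12.

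Anxa7, also called synexin, promotes the fusion of secretory granules. It measured 9.54, 10.69 and 10.90 in dark-adapted replicates 1, 2 and 3 and 8.98, 11.12 and 11.07 in light-damaged ones. The arrays parted by replicate number: the replicate 1 arrays were lower than the others by a mean of 1.69, and 2.01% of all genes were lower still in replicate 1 by this measure. The difference was 0.01 ± 0.18 (limma adjusted p = 0.9811), with a 95% interval of -0.43 to 0.45. Its other probe sets gave 0.07 ± 0.09 and -0.07 ± 0.11, the second being the 1 of 10 further annexin probe sets whose sign was opposite to that of the probe set used.

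**Figure D3:**
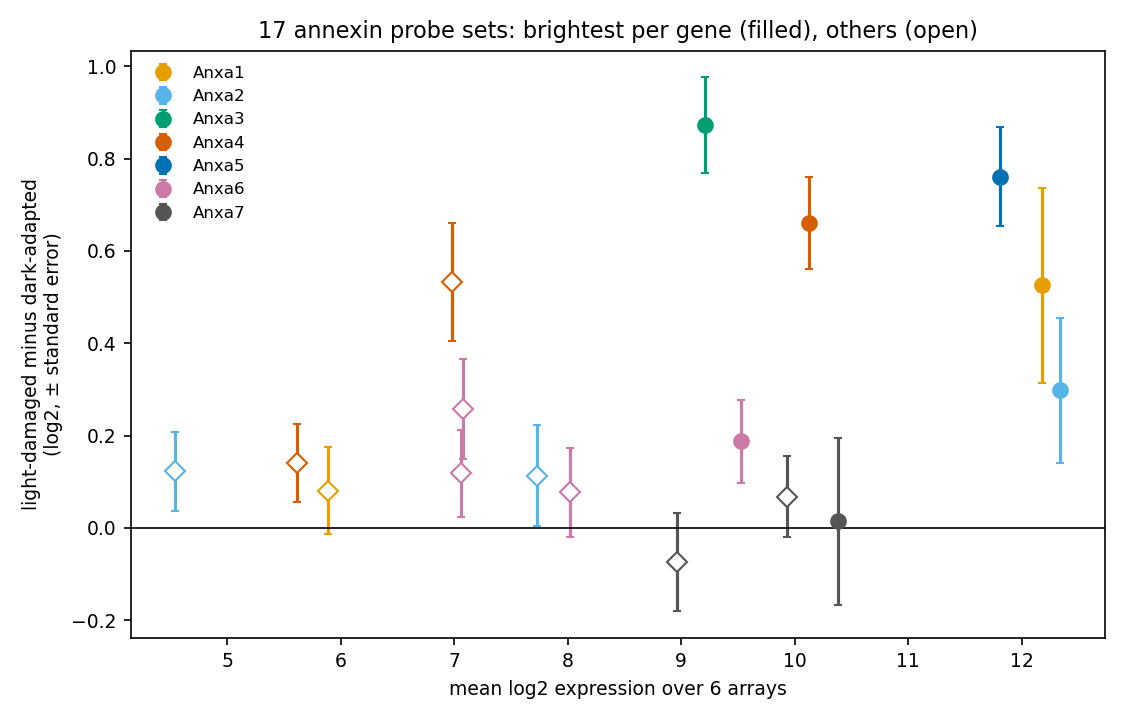
Light-damaged minus dark-adapted difference with its standard error (y axis, log2) against the mean log2 level over 6 arrays (x axis) for 17 annexin probe sets, coloured by gene. Filled circles are the brightest probe set of each gene, and open diamonds the 10 others. The second Anxa4 probe set, at 0.53, is the open symbol farthest above 0, and the dimmest ones lie near 0.

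Promoters are shown for the 2 risers that the RefSeq table holds, Anxa5 and Anxa4, and for Anxa1 and Anxa2, which did not pass, so that their sequences can be set beside each other. Of the 8 genes, 6 matched the table, without Anxa3 and Anxa6. Each sequence is the 250 bases before an annotated start site in GRCm38.p6, read 5′ to 3′ along the gene. Capitals mark matches, on either strand, to 5 motifs. These were the AP-1 motif TGANTCA, the STAT motif TTCNNNGAA, the C/EBP motif TTGCNNAA, the SP/KLF motif GGGCGG and the TATA box motif TATAAA. Anxa5 lies at chr3:36475888-36476137 on the minus strand, Anxa4 at chr6:86793585-86793834 on the minus strand (the upstream of 2 entries), Anxa1 at chr19:20390672-20390921 on the minus strand and Anxa2 at chr9:69453433-69453682 on the plus strand.
Anxa5: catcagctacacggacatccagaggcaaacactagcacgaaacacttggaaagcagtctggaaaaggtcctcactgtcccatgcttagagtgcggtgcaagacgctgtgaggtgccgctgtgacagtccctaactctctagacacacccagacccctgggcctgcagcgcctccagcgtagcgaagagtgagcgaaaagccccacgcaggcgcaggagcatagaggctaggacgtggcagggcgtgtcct
Anxa4: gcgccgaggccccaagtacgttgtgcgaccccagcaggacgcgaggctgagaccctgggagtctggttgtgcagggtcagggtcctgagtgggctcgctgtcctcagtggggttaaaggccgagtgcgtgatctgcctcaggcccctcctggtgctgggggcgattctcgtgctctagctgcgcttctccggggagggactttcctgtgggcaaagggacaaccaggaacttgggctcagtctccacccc
Anxa1: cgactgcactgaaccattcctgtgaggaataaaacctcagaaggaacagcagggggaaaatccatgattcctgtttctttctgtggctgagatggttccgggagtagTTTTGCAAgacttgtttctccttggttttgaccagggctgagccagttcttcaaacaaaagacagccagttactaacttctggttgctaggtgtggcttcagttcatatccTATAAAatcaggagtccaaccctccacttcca
Anxa2: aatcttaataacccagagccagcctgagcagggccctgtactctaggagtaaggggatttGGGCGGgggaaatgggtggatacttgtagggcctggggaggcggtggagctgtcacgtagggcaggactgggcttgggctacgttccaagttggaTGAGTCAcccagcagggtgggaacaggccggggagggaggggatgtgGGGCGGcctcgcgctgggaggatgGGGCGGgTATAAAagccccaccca

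The Anxa5 and upstream Anxa4 windows held no match to any of the 5 motifs and 13 CG dinucleotides each, with a G and C content of 58.8% and 64.8%. The Anxa1 window, with 2 CG dinucleotides and 46.0% G and C, held a TATA box match at -32 to -27 and a C/EBP match at -143 to -136, counted from the start site. The Anxa2 window held a TATA box match at -17 to -12, an AP-1 match at -95 to -89 and 3 SP/KLF matches, none of which overlapped another motif. Of 32851 promoter windows of the same length, 12.4% held the TATA letters, 6.75% the AP-1, 7.02% the STAT, 9.56% the C/EBP and 32.7% the SP/KLF letters. The downstream Anxa4 entry held 1 C/EBP match. A match is a run of letters in the reference assembly and says nothing of binding in these samples.

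Genes that act with annexins were taken from 8 lists holding 75 measured genes. Of these, 9 rose and 1 fell, where 3.07% of all genes rose and 1.92% fell. The counts of each list below stand beside the same shares. Without the block none of the 75 passed in limma, while 12 had an unadjusted p under 0.05, as did 5.94% of all genes. The other 4 annexin genes did not pass in limma, and 1 of them, Anxa9, had an unadjusted p under 0.05. Their differences were 0.26 ± 0.11 for Anxa9, 0.11 ± 0.20 for Anxa8, -0.13 ± 0.13 for Anxa10 and -0.15 ± 0.10 for Anxa13.

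Among 8 measured calcium-binding partners and scaffolds, S100a4 and Sri rose, none fell and the list median was 0.27. S100a4, a partner of Anxa2, measured 6.63, 6.28 and 6.67 in dark-adapted and 8.28, 9.19 and 8.48 in light-damaged replicates 1, 2 and 3. The groups lay far apart, with a difference of 2.12 ± 0.24 (limma adjusted p = 0.0072). Sri, sorcin, a partner of Anxa7, measured 9.34, 9.56 and 9.65 against 10.10, 10.48 and 10.29 and rose 1.71-fold (limma adjusted p = 0.0098). Both kept their calls without each replicate number in turn, but Sri lost its call with the mean over its probe sets (0.44, limma adjusted p = 0.0713) and with the probe set of largest interquartile range (0.40, adjusted p = 0.1487). S100a6, a partner of Anxa11, had a difference of 0.48 ± 0.21 and S100a10, that of Anxa2, 0.25 ± 0.14, neither of which passed. Without the replicate 1 arrays 4 genes of this list rose.

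The single formyl peptide receptor gene measured, Fpr2, a receptor of Anxa1, rose 1.77-fold (0.83 ± 0.10, limma adjusted p = 0.0100). It measured 8.09, 7.64 and 7.41 in dark-adapted and 8.92, 8.64 and 8.05 in light-damaged replicates 1, 2 and 3. The groups overlapped, because dark-adapted replicate 1 lay above light-damaged replicate 3, while every pair rose. The call held without each replicate number in turn, the highest limma adjusted p being 0.0392.

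Of 9 genes of arachidonic acid release and eicosanoid synthesis, a pathway that Anxa1 restrains, Alox5ap rose and none fell. Alox5ap, the 5-lipoxygenase activating protein, measured 10.22, 9.98 and 9.90 in dark-adapted and 11.61, 10.86 and 10.91 in light-damaged replicates 1, 2 and 3, a rise of 2.14-fold (limma adjusted p = 0.0067). The cytosolic phospholipase gene Pla2g4a had a difference of 0.60 ± 0.13 (limma adjusted p = 0.0506) and Alox5 one of 0.17 ± 0.09. Pla2g4a passed without the replicate 1 arrays (limma adjusted p = 0.0092) and with array weights (adjusted p = 0.0059).

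Of 10 glucocorticoid response genes none passed in limma, and 1 had an unadjusted p under 0.05, namely Sgk1 at -0.36 ± 0.15. Per1 and the receptor gene Nr3c1 had differences of -0.19 ± 0.10 and -0.26 ± 0.16. The list median was -0.09, and 2 of 10 differences were above 0.

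Of 7 genes of cell surface fibrinolysis, the system that the Anxa2 complex assists, none passed in limma and 3 had an unadjusted p under 0.05. These were the tissue plasminogen activator gene Plat at 0.40 ± 0.10 (limma adjusted p = 0.0924), the urokinase receptor gene Plaur at 0.31 ± 0.10 and Serpinb2 at 0.42 ± 0.14. Plat measured 8.73, 8.80 and 8.89 in dark-adapted and 9.02, 9.42 and 9.19 in light-damaged replicates 1, 2 and 3, with no overlap. With array weights Plat and Plaur passed as higher (limma adjusted p-values of 0.0381 and 0.0295).

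Of 23 genes that control the exposure of phosphatidylserine or recognise it, Pros1, Plscr1 and Stab1 rose, none fell and the median was -0.02. At an unadjusted limma p under 0.05, 4 genes were higher and 4 lower. The lower ones, Atp8a2, Atp11a, Mertk and Tmem30a, did not pass. Pros1, protein S, a bridge between phosphatidylserine and the receptor Mertk, measured 8.24, 8.01 and 8.19 in dark-adapted and 8.70, 9.22 and 8.87 in light-damaged replicates 1, 2 and 3. It rose 1.72-fold (limma adjusted p = 0.0380), without overlap. Plscr1, named a phospholipid scramblase, rose 1.53-fold and Stab1, a scavenger receptor for phosphatidylserine, 1.40-fold. Without the replicate 3 arrays none of the 3 passed in limma, with adjusted p-values of 0.1137, 0.1339 and 0.2363 for Pros1, Plscr1 and Stab1, and without the replicate 1 or the replicate 2 arrays 2 genes of this list did. With quantile normalization only Pros1 of the 3 passed, the limma adjusted p being 0.0627 for Plscr1 and 0.0655 for Stab1. Plscr1 also lost its call with either other choice of probe set, its difference being 0.33 and 0.26, and Pros1 with the pseudocount (limma adjusted p = 0.0516).

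Of 13 plasma membrane repair genes, Myof and Capns1 rose and Smpd1 fell. Myof, myoferlin, a calcium sensor of membrane patching, measured 8.12, 8.24 and 8.52 in dark-adapted and 9.47, 9.59 and 9.63 in light-damaged replicates 1, 2 and 3. The groups did not overlap, and the rise was 2.42-fold (1.27 ± 0.10, limma adjusted p = 0.0022), with the call kept without each replicate number in turn. The calpain small subunit gene Capns1 rose 1.43-fold (limma adjusted p = 0.0365). The acid sphingomyelinase gene Smpd1 fell by 0.64 (limma adjusted p = 0.0355). Neither of these passed without replicate 3 (limma adjusted p-values of 0.2180 and 0.1345), and Capns1 did not without replicate 2 (limma adjusted p = 0.1203). With the Smpd1 probe set of largest interquartile range its difference was -0.51, which did not pass (limma adjusted p = 0.0809).

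**Figure D4:**
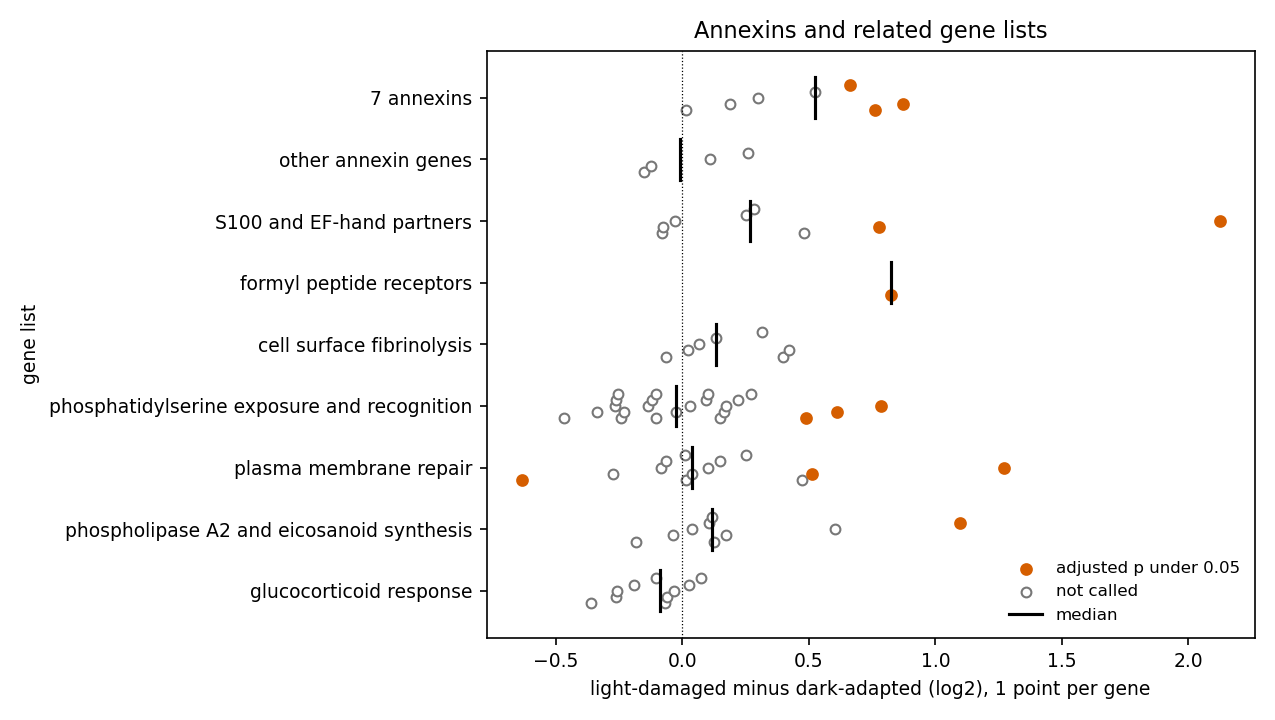
Light-damaged minus dark-adapted difference in log2 expression (x axis) for the 7 annexins and 8 related gene lists (y axis), 1 point per gene. Orange points passed at an adjusted p under 0.05 with the replicate block, open points did not, and black bars are medians. S100a4 is the point at 2.12, Myof that at 1.27 and Smpd1 the orange point at -0.64.

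Cell type markers also differed between the groups, some higher and some lower. Of 103 markers measured in 10 lists, 23 rose and 11 fell with the replicate block, where 3.07% of all genes rose and 1.92% fell. Without the block none of the markers passed in limma, while 25 had an unadjusted p under 0.05, as did 5.94% of all genes. Of 16 macrophage and microglia markers, 15 rose, none fell and the median difference was 0.95, and their mean log2 level was 9.33 to 9.63 in dark-adapted and 10.28 to 10.55 in light-damaged arrays. Cd68 rose 4.31-fold, Cd53 2.24-fold and Lyz2 2.19-fold. Csf1r, the receptor of the growth factor that sustains these cells, had a difference of -0.15 ± 0.09. Its dark-adapted mean of 13.60 lay far above the list mean, and the cell source of its signal was not tested. Without replicate 2 or replicate 3, 10 of these markers passed. Of 8 neutrophil markers, 2 rose, S100a8 by 3.73-fold and S100a9 by 2.14-fold, and the mean level was 7.24 to 7.53 against 7.65 to 8.18. The neutrophil gene Csf3r had a difference of 0.48 ± 0.12 that did not pass. Nor did Cxcr2, Mpo, Elane, Camp and Ngp pass, at 0.21, -0.10, 0.08, 0.08 and 0.07, and the median of the neutrophil list was 0.15. The part of incoming or activated phagocytes in the annexin differences was not tested, and in bulk RNA a change in the number of cells of a type and a change in RNA per cell cannot be told apart.

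Of 13 RPE markers, Rrh, Lrat and Slc16a8 fell, none rose, the median was -0.41 and the list had a mean level of 12.59 to 12.92 against 12.03 to 12.44. Of 13 photoreceptor markers 7 fell, with a median of -0.55 and a mean level of 11.75 to 12.34 against 11.13 to 11.85. Among them Opn1sw fell by 1.72, Arr3 by 0.92 and Nrl by 0.67. Without replicate 3 these RPE markers lost their calls, with limma adjusted p-values of 0.0638, 0.1170 and 0.1255 for Rrh, Lrat and Slc16a8. With the mean over probe sets Lrat and Slc16a8 also lost theirs (limma adjusted p-values of 0.0598 and 0.0979). The photoreceptor count was 2 without replicate 2 and 3 without replicate 3.

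Vim and Gfap rose among 11 Müller glia markers, 2.43-fold and 1.67-fold, of which Gfap lost its call without replicate 3 (limma adjusted p = 0.0842). The median of this list was -0.04. Lower at an unadjusted limma p under 0.05 were 4 markers, Rlbp1, Apoe, Aqp4 and Glul, none of which passed. Rlbp1 had a difference of -0.62 ± 0.15. Col3a1, Pdgfra and Tagln rose among 11 markers of pericytes and fibroblasts, where 6 passed without replicate 1, 1 passed without replicate 2, and without replicate 3 the limma adjusted p-values of the 3 were 0.0942, 0.0967 and 0.1950. Vwf rose among 12 endothelial markers and Pmel fell among 9 genes of the melanocyte list. Both calls were lost without replicate 3 (limma adjusted p-values of 0.1240 and 0.1733) and that of Pmel also without replicate 2 (limma adjusted p = 0.0580). Cdh5 and Plvap, of endothelium, had differences of 0.27 ± 0.09 and 0.18 ± 0.10, and Tyrp1 and Sox10, of the melanocyte list, -0.35 ± 0.12 and -0.22 ± 0.09, none of which passed. None of 7 lymphocyte and 4 red blood cell markers passed in limma, with 1 lymphocyte marker and no red blood cell marker at an unadjusted p under 0.05. The lymphocyte markers Nkg7, Cd3e and Cd79a had differences of 0.49 ± 0.11, 0.13 ± 0.11 and 0.10 ± 0.10. The red blood cell markers Slc4a1, Hba-a1, Alas2 and Epb42 had differences of -0.17, 0.15, -0.11 and 0.07. Of these, Hba-a1 was dim, at a mean of 5.06 in dark-adapted and 5.21 in light-damaged arrays. Ednrb of the melanocyte list rose without replicate 1, and without replicate 2 Nkg7 rose while Rlbp1 and the melanocyte marker Kit fell. Rlbp1 stands in both the RPE and the Müller glia lists. Pmel and Tyrp1 had dark-adapted means of 12.78 and 13.51, as bright as RPE markers, so RPE and melanocytes cannot be told apart as their source.

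**Figure D5:**
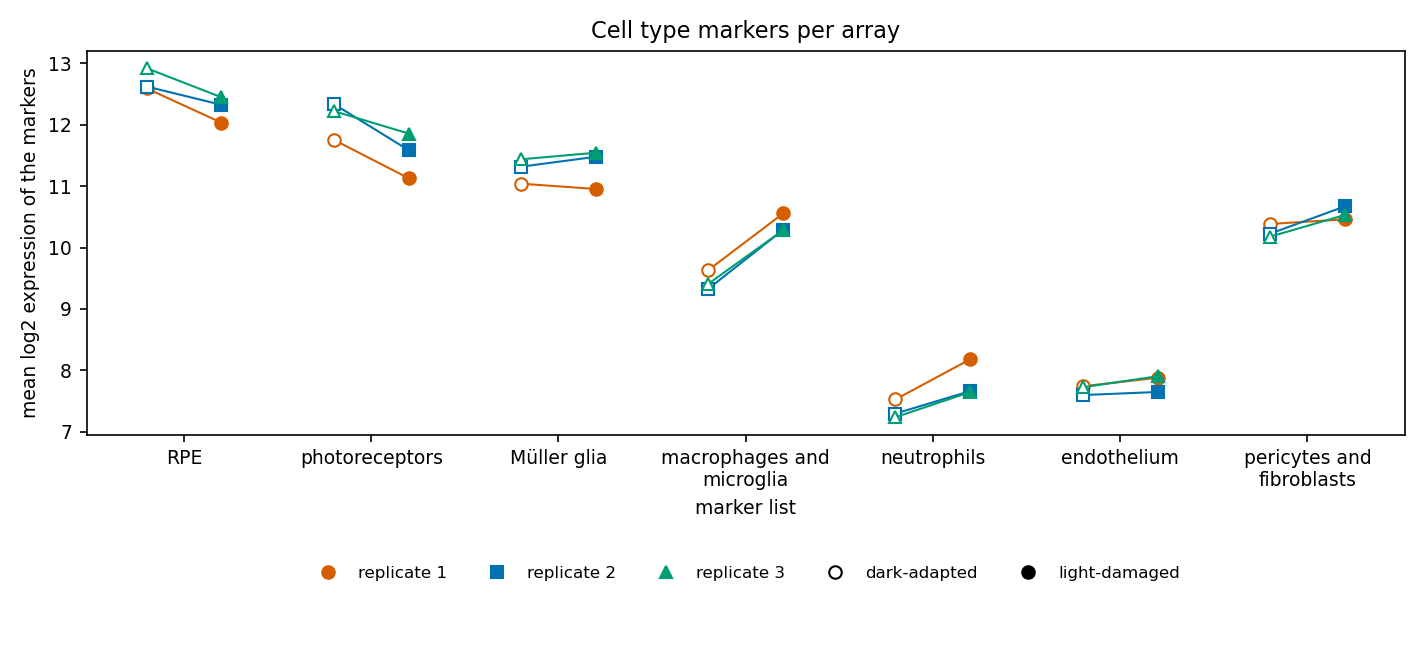
Mean log2 expression of each list of cell type markers (y axis) in dark-adapted (open) and light-damaged (filled) arrays, with lines joining arrays of 1 replicate number, for 7 lists (x axis). The macrophage and microglia markers are higher in every light-damaged array, at 10.28 to 10.55, and the RPE markers lower, at 12.03 to 12.44.

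The genes whose values ran most like those of Anxa3 over the 6 arrays were Trim14, Tirap and Ptger4, with Pearson correlations of 0.998, 0.995 and 0.995. For Anxa5 they were Vcam1, Sri and Mthfd1l, at 0.996, 0.993 and 0.992. These are descriptions over 6 arrays that share the replicate and light effects, and 18193 genes were searched. All 6 rose, Vcam1 2.76-fold (limma adjusted p = 0.0076) and the others between 1.37-fold and 1.71-fold. With each replicate number's mean removed, only 3 independent values are left and the closest genes reached 0.9997 or more. They were Uox, Git2 and Cyb5r3 for Anxa3 and Pisd, Gmppa and Tha1 for Anxa5, and 4 of these 6, among them Uox at 0.05 ± 0.08, did not themselves pass.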

How the data were processed

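RNA of the RPE was measured on 6 Affymetrix arrays, 3 per group; RNA was prepared with Trizol and an RNeasy column and labelled with biotin, per the labels' protocols. The deposited values are log2 expression per probe set, and the submitters' processing notes name RMA, whose version is not given in the sources used here. The log2 scale was read from the deposited values, which lay between 3.72 and 14.82. RMA compresses differences near background and saturation. No detection calls were used, so the main fit kept dim probe sets, and sequencing depth does not apply to arrays. The number of arrays limits the precision.

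Of 45101 probe sets, 64 were controls, and 34945 had exactly 1 symbol in the platform annotation, 932 several and 9160 none used here. Each gene was represented by its probe set with the highest mean over all 6 arrays. Limma 3.58.1 in R 4.3.3 (lmFit, eBayes, two-sided, Benjamini-Hochberg over all 18193 genes) was fitted with a block for the replicate number (2 residual degrees of freedom), since the definition of the members asks for pairs; the fit without it was the alternative. The labels do not say what a number marks. Deviations of same-numbered arrays from group means correlated at 0.89, 0.62 and 0.86, all above 0.1, so arrays were paired by number, less surely for replicates 2 and 3, since crossed ones reached 0.65 and 0.61.

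The members and gene lists were chosen with earlier results of these data known. Named were all members, lists of at most 4 measured genes in full, the 3 genes of each other list with the smallest unadjusted p, and the 3 genes most correlated with each of the 2 annexins of smallest p; Csf1r, S100a10, Ahnak and other genes beyond the rule were named after their values were seen. The fit was tested on simulated data with 200 changed genes, fewer than the 908 called here. It called 0% of changes of 0.5 log2 units, 61% of those of 1 and 92% of those of 2. In the real data some differences near 0.5 were called, such as Stab1 at 0.49, so these rates describe the simulated setting only. Changes can still be missed, and a difference that did not pass is no evidence that a gene was unchanged. Promoter sequences are RefSeq's, GRCm38.p6. Alternatives covered normalization, a filter leaving out the dimmest 25% of genes, a pseudocount of 16, probe set choice, limma settings, array weights and left-out arrays.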

Additional observations from a re-analysis of the deposited data

How the results depend on the processing

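Anxa3, Anxa4 and Anxa5 kept a difference above 0 in all 21 alternatives, over ranges of 0.73 to 1.11, 0.45 to 0.76 and 0.64 to 0.88. Quantile normalization, median centring, the filter on dim genes, the pseudocount, probe set choices, testing every probe set, trend, robust and array weight settings each left 3 annexins higher. The count of annexins higher was 0 with no replicate block, 0 when any 1 array was also left out, and 3 without the block and both replicate 1 arrays, the last chosen after seeing the data. Over all 18193 genes these fits called 9, 3 to 12 and 576 higher. With the block and 1 replicate number left out, the annexin count ranged from 0 to 5. The genes called higher in those fits were 160 without replicate 3, 392 without replicate 2 and 827 without replicate 1. No annexin was called lower in any setting. Anxa7 reversed to -0.0026 with median centring, and with arrays left out ranged from -0.41 to 0.72. With the block it ran from -0.19 without replicate 2, over -0.06 without replicate 3, to 0.30 without replicate 1. In the fit lacking the block its reversals were -0.41 (dark-adapted replicate 1 left out), -0.35 (light-damaged replicate 2) and -0.33 (light-damaged replicate 3). The cause was not tested. RMA can compress differences near background, and its part in the differences of the dim probe sets was not tested.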

Other observations

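Anxa2, its partner S100a10 and the scaffold Ahnak, which form a complex at the plasma membrane, were below 0 in pair 1 and above 0 in pairs 2 and 3. By pair the differences were -0.16, 0.68 and 0.38 for Anxa2, -0.04, 0.62 and 0.19 for S100a10, and -0.34, 0.80 and 0.39 for Ahnak. Anxa1 and S100a6 had the same order, with -0.07, 1.17 and 0.48 for Anxa1 and -0.16, 1.01 and 0.59 for S100a6. So did Anxa7, with -0.56, 0.43 and 0.17, and Sdcbp, with -0.23, 0.40 and 0.14, as well as Ano6, Axl and Col1a2. The order was thus not particular to the Anxa2 complex, and its share over all genes was not counted. With the replicate means removed, Anxa1 and Anxa2 correlated at 0.98, which rests on 3 independent values and is a description. That value was not particular to this pair: Anxa3 with Anxa5 also reached 0.98 and Anxa4 with Anxa5 0.99. Pairs with Anxa7 ranged from 0.20 to 0.78. The genes listed by pair above were singled out after their values were seen.

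The probe sets of Anxa7 disagreed over the replicate 1 arrays. The brightest one gave a replicate 1 mean minus the mean of the other 4 arrays of -1.69 on the log2 scale, another gave -0.34, and the third gave 0.25. For Anxa6 the corresponding values were 0.19 for the probe set used and 0.43, -0.70 and 0.13 for the others.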
